A study of Bos taurus with 6 samples.

Results

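The sites described here are places on bovine autosomes where 2 embryonic stem cell lines both carried the histone mark H3K4me3 while H3K27me3 was called in 1 line and not in the other. They were chosen by the positions of peak summits in the deposited lists. A site is an H3K4me3 summit of line A on chromosomes 1 to 29 with a line B H3K4me3 summit within 1 kb, an H3K27me3 summit within 1 kb in 1 of the lines, and no H3K27me3 summit of the other line within 10 kb. There were 1018 such sites among the 18712 autosomal H3K4me3 sites shared by the lines (5.44%), which came from 19966 autosomal H3K4me3 summits of line A. H3K27me3 lay in line A alone at 809 of them and in line B alone at 209. The cells were bovine embryonic stem cells derived from blastocysts, from lines A and B, which are independent, taken at passage 12. Both were grown on mouse embryonic fibroblasts in a defined medium with human FGF2 and the WNT inhibitor IWR1, and were cleared of the feeder cells with magnetic beads before ChIP-seq. The labels name no other treatment, and the groups are line A H3K4me3, line A H3K27me3, line B H3K4me3 and line B H3K27me3, with 1 library each. The 2 input libraries were not analysed here.

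H3K4me3 is placed on nucleosomes at the start sites of active and poised genes, mostly at CpG islands, by SET1 and MLL complexes. H3K27me3 is placed by EZH1 or EZH2 within Polycomb repressive complex 2 and marks silenced developmental genes. In pluripotent cells promoters of many developmental regulators carry both marks, a state called bivalent, and the H3K27me3 part of it is known to vary with culture and between lines. Each mark was read in a separate bulk library, so both marks at a site need not lie on the same chromosome copy or in the same cell.

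With 1 library per line and mark, no difference between the lines could be tested, and each value compares those libraries. Because the rule used the H3K27me3 lists, all H3K27me3 values at the sites are given as descriptions. Shares carry 95% Wilson intervals and medians 95% binomial intervals. They speak to counting error alone, and neighbouring sites depend on each other. The peak score is a −log10 value from the authors' peak caller, of p or of q. It starts just above 2 in each list and moves with the depth of the library, which is unknown here. Coordinates are in UMD3.1. No annotation or sequence of that assembly was used, so the genes and the bases at the sites were not analysed here.

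More sites had H3K27me3 in line A alone than in line B alone. The share of shared H3K4me3 sites was 4.32% for line A alone (809 sites, Wilson interval 4.04% to 4.62%) and 1.12% for line B alone (209 sites, 0.976% to 1.28%), a ratio of 3.87. The autosomal H3K27me3 list of line A was also longer, with 17664 summits against 13083, a ratio of 1.35. When the autosomal list of line A was cut to its 13083 highest scores, the length of the line B list, a choice made after seeing the data, 462 sites had H3K27me3 in line A alone and 411 in line B alone. The ratio was then 1.12. Depth of the libraries and amount of the mark cannot be told apart in the length of the lists.

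Set against all sites with H3K27me3, these sites were a minority. Line A had an H3K27me3 summit within 1 kb of 4352 shared H3K4me3 sites, of which 18.6% were line A alone, 456 had a line B summit between 1 and 10 kb away, and 3087 had H3K27me3 in both lines within 1 kb. Line B had one at 3575 sites, of which 5.85% were line B alone and 279 had a line A summit between 1 and 10 kb away. Without the 10 kb limit, that is with the other line empty within 1 kb, the counts were 1265 for line A and 488 for line B. Neighbouring sites can share a summit. The 809 sites of line A alone had 788 distinct nearest H3K27me3 summits, and the 209 of line B alone had 200.

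The H3K27me3 summits at these sites were weak. In line A alone the highest H3K27me3 score within 1 kb ran from 2.10 to 189 with a median of 6.17, and the sites with both had a median of 15.8 in the same library. In line B alone it ran from 2.19 to 20.4 with a median of 5.17, against 11.5 at the sites with both. The median percentile within the H3K27me3 list was 34.6 for line A alone (interval 32.2 to 37.3), and for line B alone it was lower, with an interval of 21.6 to 29.7. Scores above the median of the sites with both occurred at 37 of 809 sites of line A alone (4.57%) and 6 of 209 of line B alone (2.87%). Scores in the top decile of the list occurred at 3 sites of line A alone and at 0 of 209 sites of line B alone, and 3 counts, the most that a count of 0 allows, would be a share of 1.44%.

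The share of H3K27me3 sites that were found in 1 line fell steeply with the score in that line. In line A it was 43.6% in the lowest quartile of scores (474 of 1088 sites, Wilson interval 40.6% to 46.5%), 24.4% in the next, 5.33% in the third and 1.10% in the highest (12 of 1088, 0.632% to 1.92%). In line B it was 16.0% (143 of 894 sites, 13.7% to 18.5%), 6.60%, 0.672% and 0.112% (1 of 894). The upper 2 quartiles begin at scores of 12.4 for line A and 10.9 for line B. A signal of the other line under the calling limit would not be listed.

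**Figure D1:**
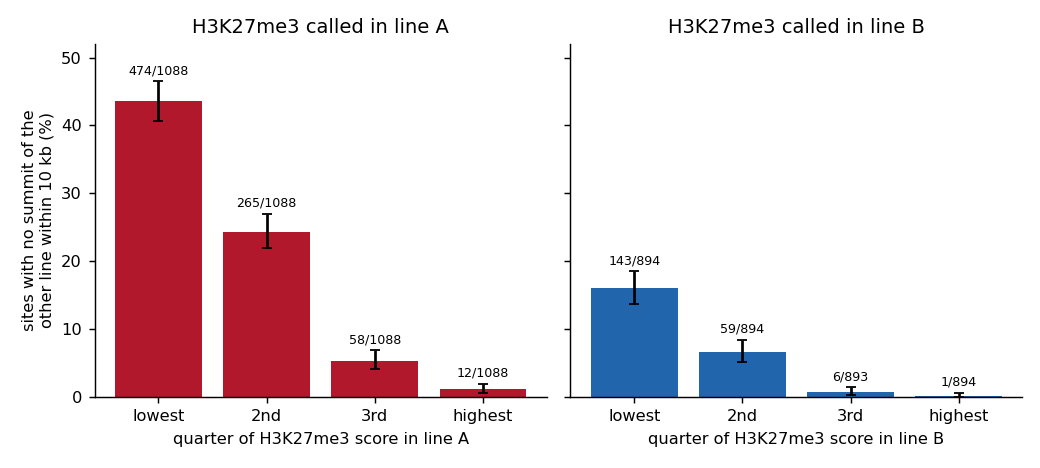
Share of shared H3K4me3 sites with H3K27me3 in line A (left) or line B (right) that had no H3K27me3 summit of the other line within 10 kb, by quartile of the H3K27me3 score; bars show the percent, error bars the 95% Wilson interval, and labels the number of sites. The share falls from 43.6% to 1.10% for line A, and for line B it falls from 16.0% to 0.112%.

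H3K27me3 at these sites also came with few other called summits, while widths are not given in the lists. Exactly 1 H3K27me3 summit of the carrying line within 10 kb was found at 598 of 809 sites of line A alone (73.9%, Wilson interval 70.8% to 76.8%) and at 179 of 209 of line B alone (85.6%, 80.2% to 89.8%). At the sites with both, 34.7% had 1 summit in line A and 45.3% had 1 in line B, while 41.1% and 32.6% had 3 or more. Among the sites of line A alone 6.92% had 3 or more, with at most 8. The density of line A summits around its own sites was 0.556 per site and kb within 1 kb and 0.0593 between 1 and 2 kb. Around the sites with both it was 0.600 and 0.212. Line B around its own sites had 0.519 and 0.0215, against 0.575 and 0.158 at the sites with both. The rule puts at least 1 summit within 1 kb in both classes. Beyond 1 kb it sets no direct limit on the carrying line, but it drops sites with a summit of the other line up to 10 kb away. The 735 sites dropped for a summit between 1 and 10 kb had a median of 3 line A summits within 10 kb. At sites of line A alone the median was 1. How much of the contrast with the sites with both follows from this selection was not tested.

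Where it was called, H3K27me3 lay at a like distance from the H3K4me3 summit at both kinds of line A sites. The median distance was 178 bases in line A alone (interval 159 to 198) and 177 bases in line A at the sites with both (164 to 190). Within 100 bases lay 288 of 809 (35.6%) and 1094 of 3087 (35.4%). In line B alone the median was 239 bases (192 to 319), against 207 (193 to 223) at the sites with both, and 43 of 209 (20.6%, Wilson interval 15.6% to 26.6%) lay within 100 bases, against 31.8% (30.2% to 33.4%). The intervals of the medians overlapped in line B and those of the shares within 100 bases did not.

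The nearest summit of the line without a call lies beyond 10 kb by the rule. From the sites of line A alone the nearest line B summit lay at a median of 128 kb, with quartiles of 42.3 and 323 kb, and from the sites of line B alone the nearest line A summit lay at 95.3 kb, with quartiles of 32.3 and 239 kb. At sites without H3K27me3 within 10 kb in either line the medians were 146 kb to line B and 105 kb to line A. Between 10 and 100 kb, a span the rule left free, 46.4% of the sites of line A alone and 48.8% of those of line B alone had no H3K27me3 summit of either line. This was 49.6% at sites without H3K27me3 within 10 kb in either line and 33.0% at sites with both. In the same span line A had more summits than line B at 306 of 809 sites of line A alone (37.8%, Wilson interval 34.5% to 41.2%), against 37.5% of all shared sites, and line B had more at 13 of 209 sites of line B alone (6.22%, Wilson interval 3.67% to 10.3%), against 7.07%. Both intervals held the share of all shared sites. Line A had more at 61 of 209 sites of line B alone (29.2%, Wilson interval 23.4% to 35.7%), whose interval lay below the 37.5% of all shared sites, and line B had more at 47 of 809 sites of line A alone (5.81%, 4.40% to 7.64%). Summed over sites, line A had 1.65 times as many summits as line B in this span at sites of line A alone, 1.26 times at sites of line B alone and 1.45 times at all shared sites. This ratio was 1.33 at sites with both and 1.52 at sites without H3K27me3 within 10 kb in either line. The surroundings of line B alone thus held relatively fewer line A summits than those of all shared sites. They lay near the sites with both in the summed ratio alone. The share of sites with more line A summits was 45.8% at sites with both, and 32.6% at sites without H3K27me3 within 10 kb in either line. The surroundings of line A alone lay near the shared sites in the share of sites with more line A summits, but had the highest summed ratio of these classes.

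**Figure D2:**
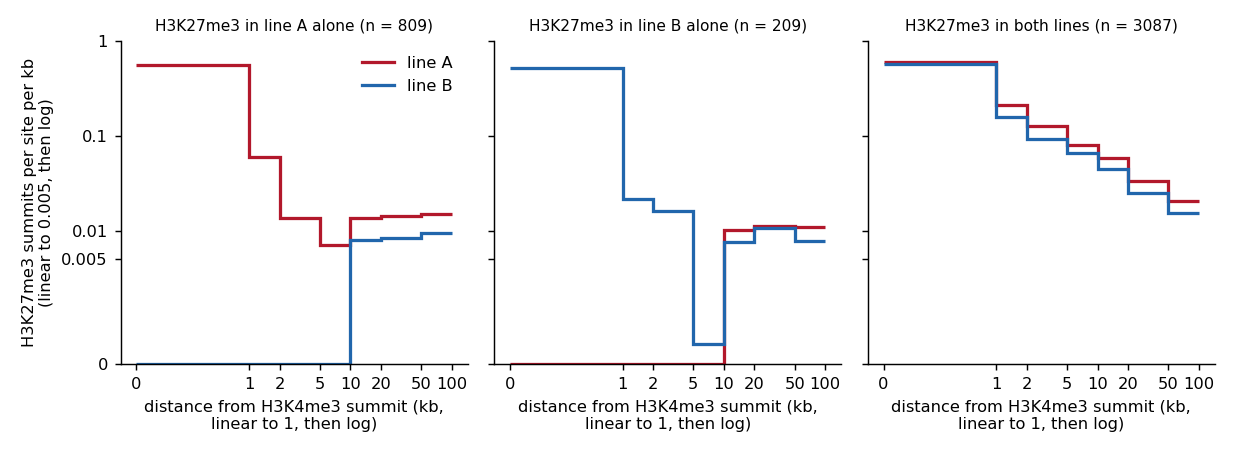
H3K27me3 summits per site and kb (vertical axis, linear to 0.005 and then log) by distance from the H3K4me3 summit (horizontal axis, kb, linear to 1 and then log), for line A in red and line B in blue, at sites of line A alone, of line B alone and with both. The other line is at 0 up to 10 kb by the rule; in the carrying line the density drops from 0.556 within 1 kb to 0.0593 between 1 and 2 kb at sites of line A alone.

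Of the 10 sites of line A alone with the highest H3K27me3 score, 3 stood far above the rest. On chromosome 26 at 38917918 the H3K27me3 score was 189 in line A, with the nearest line B summit 302 kb away and no other H3K27me3 summit of either line between 10 and 100 kb. H3K4me3 there scored 42.0 for line A and 10.9 for line B, so it too was on the side of line A, by 2.73 on the log2 scale after subtracting the median of all shared sites. On chromosome 27 the sites at 26261320 and 26263166 shared 1 H3K27me3 summit with a score of 176, 878 and 968 bases away. Their H3K4me3 scores were 5.92 and 10.5 in line A and 33.7 and 19.2 in line B. Around them line A had 31 and 32 summits of H3K27me3 between 10 and 100 kb and line B 14 and 15, so this pair lay beside a stretch dense in H3K27me3 in both lines.

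The other 7 scored between 23.1 and 28.6. They lay on chromosome 21 at 70968216 (28.6) and 33310117 (25.1), on chromosome 18 at 50642787 (26.4), on chromosome 7 at 45562770 and 45563612 (24.4, 1 shared summit), on chromosome 3 at 44372937 (23.9) and on chromosome 1 at 179474 (23.1). The site on chromosome 3 had H3K4me3 scores of 82.4 for line A and 115 for line B, and its nearest line B H3K27me3 summit was 552 kb away. The site on chromosome 21 at 33310117 had H3K4me3 scores of 63.1 and 96.9, with the nearest line B H3K27me3 summit 198 kb away. At both sites, high H3K4me3 in both libraries stood beside a clear H3K27me3 summit in line A and none nearby in line B.

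The strongest site of line B alone was on chromosome 23 at 48018614. Its H3K27me3 score was 20.4 in line B, the H3K4me3 scores were 51.2 for line A and 72.9 for line B, and the nearest line A H3K27me3 summit was 47.5 kb away. It was followed by chromosome 19 at 29084072, with H3K27me3 at 15.9 in line B and H3K4me3 at 105 for line A and 139 for line B, and by chromosome 23 at 39116102, with H3K27me3 at 14.1 from 3 summits within 10 kb and H3K4me3 at 86.2 and 92.4. The next was chromosome 12 at 66292275, with H3K27me3 at 13.0, H3K4me3 at 62.1 and 74.6 and the nearest line A H3K27me3 summit 879 kb away. The other 6 of the 10 highest scored between 10.2 and 11.9, on chromosome 19 at 52262848, chromosome 29 at 28699668, chromosome 25 at 934926, chromosome 24 at 24673511 and 61569845, and chromosome 17 at 44569434. After centring on the median of shared sites, H3K4me3 was lower in line B at 9 of these 10, the exception being chromosome 17. Among the 10 strongest of line A alone it was lower in line B at 5 and higher at 5. Over all sites of line B alone it was higher in line B at 94 of 209 (45.0%). This was 48.6% for line A alone, 44.9% for sites with both and, by the centring, 50% for all shared sites. Each set of 10 is small and was picked by H3K27me3 score.

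Most sites stood alone among themselves. Joining sites of 1 kind up to 50 kb apart left 750 loci of line A alone, 699 of them with 1 site, and 193 of line B alone, 178 of them with 1 site. The longest run of line A alone was on chromosome 13 at 62030374 to 62087756. It held 4 sites over 57.4 kb with H3K27me3 scores of 4.69 to 12.4, and with 10 kb added on each side line A had 7 H3K27me3 summits there and line B 0. Next were 3 sites over 39.3 kb on chromosome 22 at 58364500 to 58403803, with H3K27me3 scores of 7.45 to 7.75 and 6 summits in line A against 0. The others were on chromosome 2 at 121604184 to 121635143, chromosome 25 at 2544326 to 2552992 and chromosome 6 at 16004625 to 16008368, with 3 sites each. The run on chromosome 6 spanned 3.74 kb but held 8 H3K27me3 summits of line A, against 0 of line B, in its window. The rule itself keeps summits of the other line out of 10 kb around each site, so the counts of 0 in runs of either kind follow from it in whole or in large part.

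In line B alone the longest run was on chromosome 29 at 28678103 to 28711969, with 3 sites over 33.9 kb, H3K27me3 scores of 3.29 to 11.8 and 4 summits in line B against 0 in line A. The others had 2 sites each, on chromosome 19 at 24205582 to 24232081, chromosome 23 at 48018614 to 48021405, chromosome 12 at 34235370 to 34237469 and chromosome 2 at 133642568 to 133644513. The nearest site of the opposite kind lay at a median of 931947 bases from sites of line B alone and 4413545 bases from sites of line A alone. Within 100 kb, 15 of the 209 sites of line B alone had a site of line A alone (7.18%), and within 1000 kb 115 did (55.0%). In the other direction these were 15 of 809 (1.85%) and 168 of 809 (20.8%). The same shares were not taken over all shared sites, so they do not show whether the kinds lay closer together than other sites.

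The sites of line A alone farthest from any H3K27me3 of the other line were chromosome 11 at 32596160 (nearest line B summit 2788 kb away), chromosome 4 at 20153277 (2635 kb), chromosome 5 at 60502713 (2629 kb) and chromosome 1 at 26953856 (2256 kb) and 95170300 (2137 kb). Their H3K27me3 scores in line A were 8.34, 6.54, 10.4, 9.36 and 5.65, each from 1 summit within 10 kb. For line B alone they were chromosome 19 at 1474056 (1261 kb), chromosome 17 at 39885275 (1258 kb), chromosome 12 at 59145101 (1211 kb), chromosome 14 at 44187594 (1143 kb) and chromosome 1 at 118300679 (1121 kb), with H3K27me3 scores of 2.72, 2.98, 2.19, 6.31 and 7.27. H3K4me3 was present in both libraries at each of these 10, between 3.78 and 80.7 in line A, while line B scored between 13.8 and 187.

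H3K4me3 scores were not used by the rule beyond the presence of a summit. Sites of 1 line had H3K4me3 between that of the sites with both and that of the sites without H3K27me3. In the line A library the H3K4me3 score had a median of 29.9 at sites of line A alone (interval 27.5 to 32.6), 36.5 at sites of line B alone (32.5 to 43.7), 24.8 at sites with both (24.0 to 25.9) and 51.8 at sites without H3K27me3 within 10 kb in either line (51.0 to 52.7). In line B the medians were 53.6 (49.1 to 58.1), 61.2 (55.2 to 68.1), 40.9 (39.6 to 42.6) and 91.0 (89.0 to 92.3) in the same order. In both libraries the intervals of the sites of 1 line lay above those of the sites with both and below those of the sites without H3K27me3. Another 735 sites had H3K27me3 within 1 kb in 1 line and a summit of the other line between 1 and 10 kb away. Their medians were 18.3 in line A (16.3 to 20.3) and 35.2 in line B (31.5 to 37.4), below those of the sites with both. The middle level thus did not extend to all sites with H3K27me3 within 1 kb in 1 line. The sites were also set against those with both at like H3K27me3 scores. In the lowest quartile of line A H3K27me3 scores the line A H3K4me3 median was 29.7 at 474 sites of line A alone and 28.1 at 448 sites with both. In the lowest quartile of line B H3K27me3 scores it was 33.8 at 143 sites of line B alone and 27.1 at 667 sites with both. In the second quartile it was 31.1 at 265 sites of line A alone against 26.0 at 704 with both, and 45.9 at 59 sites of line B alone against 26.4 at 771 with both. The sites of 1 line had the higher median in each of these 4 comparisons.

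By decile of the line A H3K4me3 score, sites of line A alone made up 5.88% of shared sites in the lowest decile (Wilson interval 4.90% to 7.03%), 5.93% in the fourth (4.95% to 7.10%) and 1.87% in the highest (1.35% to 2.59%). Sites of line B alone stayed between 1.02% and 1.44% over the first 9 deciles and made up 0.534% in the highest (0.290% to 0.981%). Sites with both rose to 27.7% in the third decile and fell to 5.24% in the highest. Very strong H3K4me3 was uncommon at the sites. Both H3K4me3 scores were in the top decile of their lists at 16 of 809 sites of line A alone (1.98%) and 4 of 209 of line B alone (1.91%), against 2.17% of the sites with both, 9.72% of the sites without H3K27me3 and 7.25% of all shared sites.

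**Figure D3:**
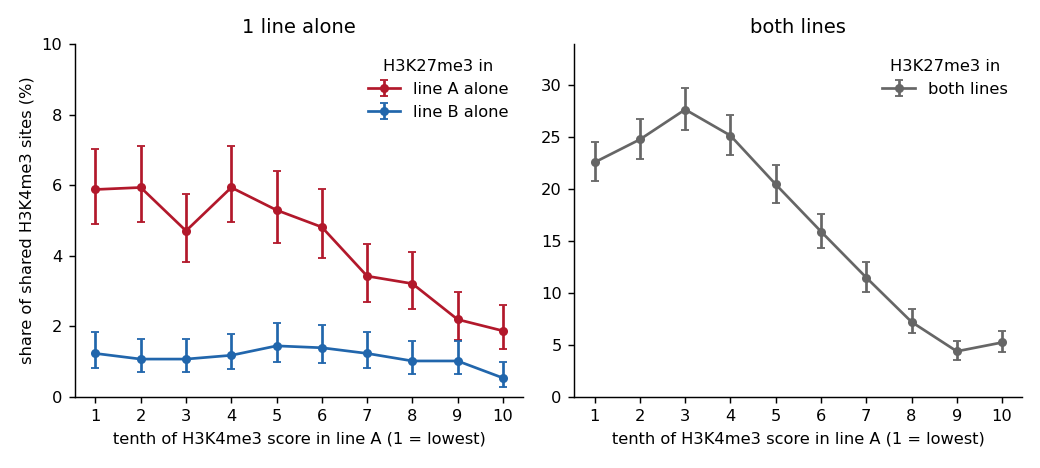
Share of shared autosomal H3K4me3 sites (percent, with 95% Wilson intervals) that had H3K27me3 in line A alone or line B alone (left) and in both lines (right), by decile of the H3K4me3 score in line A. Line A alone falls from 5.88% to 1.87%, while line B alone stays near 1% until the highest decile; the vertical scales differ.

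Between the lines, H3K4me3 at the median site of either kind lay near that of all shared sites. Over all shared sites the score was 1.71 times as high in line B as in line A, and this median was subtracted. The centred log2 ratio of line B over line A then had a median of -0.01 at sites of line A alone (interval -0.05 to 0.03, quartiles -0.38 and 0.45) and -0.06 at sites of line B alone (-0.22 to 0.04, quartiles -0.50 and 0.35). Both intervals held 0. With autosomal H3K27me3 lists of equal length the median of line A alone was -0.049 with an interval of -0.12 to -0.0024, which did not hold 0. A ratio above that of the median shared site was found at 393 of 809 (48.6%) and 94 of 209 (45.0%) sites. Among H3K4me3 summits above the median score of their lists the median was -0.052 at 301 sites of line A alone (-0.11 to -0.01) and -0.23 at 90 sites of line B alone (-0.33 to -0.06), after centring on such sites. At 794 sites with both it was -0.094 (-0.13 to -0.047). The stronger sites with H3K27me3 thus had lower relative H3K4me3 in line B whichever line carried it, and the interval of line B alone overlapped that of the sites with both.

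H3K4me3 scores, which are −log10 values and not amounts of the mark, differed by more than 2-fold after centring at some sites. The direction was toward line A at 5.16% of all shared sites and toward line B at 6.08%. At sites of line A alone these were 49 of 809 (6.06%) and 65 of 809 (8.03%, Wilson interval 6.35% to 10.1%). At sites of line B alone they were 12 of 209 each (5.74%, 3.31% to 9.77%). The shares lay near the background, with the lower bound of 8.03% just above 6.08%. H3K4me3 summits of the lines lay a median of 64 bases apart at sites of line A alone, 83 at sites of line B alone, 66 at sites with both and 49 at sites without H3K27me3.

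**Figure D4:**
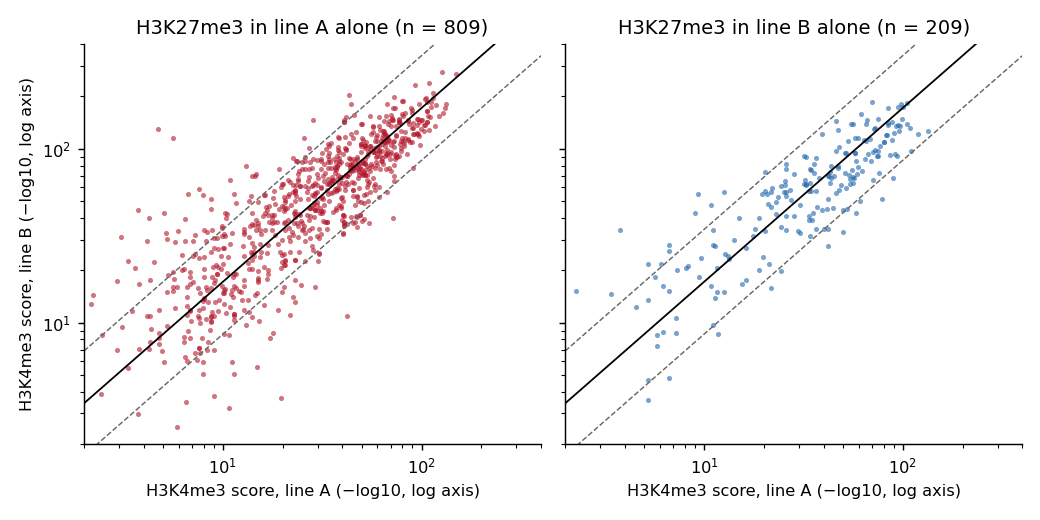
H3K4me3 score in line B against line A (log axes, −log10 units) at the 809 sites of line A alone and the 209 of line B alone, 1 point per site. The solid line is the median ratio of all shared sites (1.71) and the dashed lines are 2-fold above and below it; points of both kinds spread about the solid line, with 114 of 809 and 24 of 209 outside the dashed lines.

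Some sites with H3K4me3 above the list median in both libraries did differ. Among those of line A alone the ratio leaned most toward line B on chromosome 4 at 38339193, with H3K4me3 scores of 43.1 for line A and 205 for line B and H3K27me3 at 3.21 in line A, and on chromosome 1 at 179474, with 44.2 and 180 and H3K27me3 at 23.1. Next were chromosome 1 at 67962822 (41.9 and 152), chromosome 4 at 108440688 (40.6 and 145) and chromosome 8 at 27518519 (40.7 and 142). At these 5 sites the line with H3K27me3 had the lower centred H3K4me3 score, by 1.03 to 1.47 on the log2 scale, a direction set by how they were picked. Toward line A the ratio leaned most on chromosome 6 at 74150394 (67.0 and 56.6), followed by chromosome 5 at 94553858 and 6777585, chromosome 26 at 39701981 and chromosome 28 at 3274430, with centred ratios of -1.02 to -0.80. There the line with H3K27me3 had the higher centred H3K4me3 score, again by how the sites were picked.

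Among the sites of line B alone, the ratio leaned most toward line A on chromosome 26 at 37800536, with H3K4me3 scores of 89.4 for line A and 68.1 for line B, H3K27me3 at 8.81 in line B and 6 line B H3K27me3 summits within 10 kb. It was followed by chromosome 11 at 27200954 (110 and 97.3), chromosome 5 at 57873850, chromosome 19 at 51968826 and chromosome 18 at 46754377, with centred ratios of -1.17 to -0.84. Toward line B the largest were on chromosome 19 at 24232081 (45.9 and 143) and chromosome 7 at 71142474 (39.2 and 121), followed by chromosome 19 at 62863288, chromosome 3 at 30803800 and chromosome 20 at 6753380, with ratios of 0.58 to 0.87. Sites leaning either way were found for both kinds.

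Sites of line A alone outnumbered those of line B alone on all 29 autosomes. The H3K27me3 list of line A was also the longer on each of them, with 389 summits against 252 on chromosome 22 and 332 against 253 on chromosome 12. Counts by chromosome were not repeated with lists of equal length. The share of line A alone was highest on chromosome 22, at 37 of 519 shared sites (7.13%, Wilson interval 5.22% to 9.67%), and its interval lay above the pooled 4.32% there and on chromosome 4 (42 of 635, 6.61%), and below it on chromosome 11 (25 of 939, 2.66%). The share of line B alone was highest on chromosome 12, at 13 of 405 (3.21%, 1.89% to 5.41%), and its interval lay above the pooled 1.12% there, on chromosome 17 (13 of 573, 2.27%) and on chromosome 24 (8 of 318, 2.52%). The balance between the kinds varied too. Line A alone made up 79.5% of all the sites (interval 76.9% to 81.8%), but 59.4% on chromosome 12 (19 of 32) and 92.5% on chromosome 22 (37 of 40). The interval of this share lay below 79.5% on 5 chromosomes and above it on 2. These intervals are not adjusted for 29 chromosomes.

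**Figure D5:**
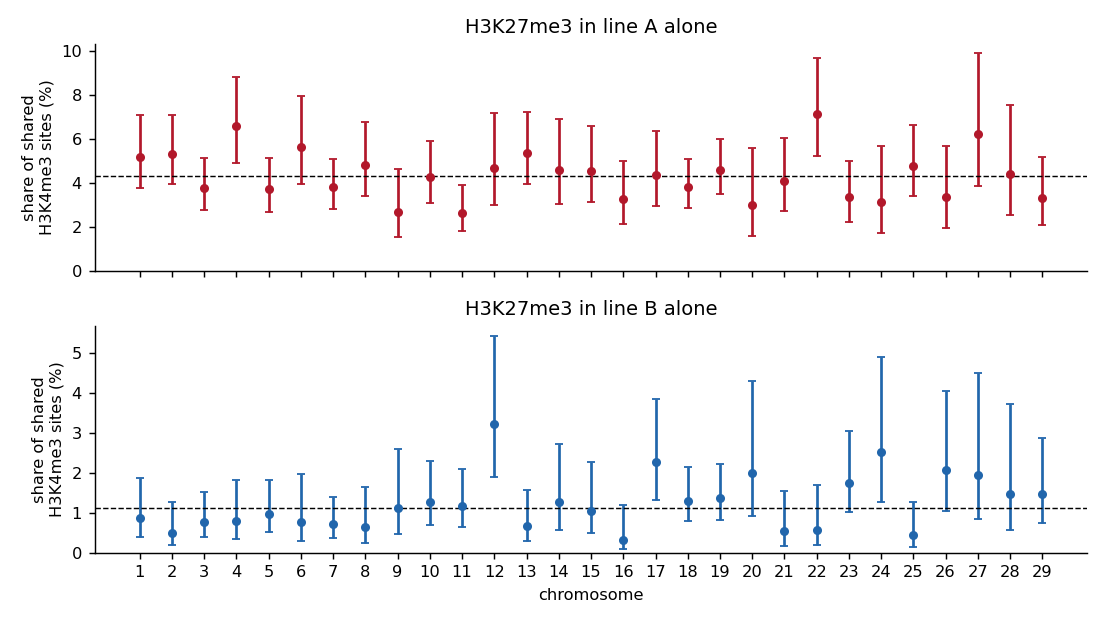
Share of shared H3K4me3 sites with H3K27me3 in line A alone (upper panel) and line B alone (lower panel) on each of the 29 autosomes, as percent with 95% Wilson intervals; the dashed lines are the pooled shares of 4.32% and 1.12%. Chromosome 22 is highest for line A alone at 7.13% and chromosome 12 for line B alone at 3.21%.

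Chromosome 23 stood apart in its H3K4me3 scores, a pattern noticed after its values were seen. Over its 683 shared sites the centred log2 ratio of line B over line A had a median of 0.30 (interval 0.23 to 0.34), while the medians of the other 28 autosomes ran from -0.12 to 0.04. The median line A score on chromosome 23 was 30.5, below the range of 36.9 to 49.3 on the other autosomes. The median line B score was 64.4, inside their range of 59.2 to 86.7. In windows of 5 Mb, 10 of 11 on chromosome 23 had a median ratio above 0, up to 0.48. The last, from 50 Mb on with 28 sites, had -0.02. The 23 sites of line A alone on chromosome 23 had a median ratio of 0.42, with 18 above 0, and the 12 of line B alone 0.29, with 7 above 0. Sites without H3K27me3 there had 0.28, so the shift was not limited to the sites of 1 line. Line B alone made up 12 of 683 shared sites on this chromosome (1.76%, Wilson interval 1.01% to 3.05%), and the interval held the pooled 1.12%. Of the 35 sites of either kind there, 23 were line A alone (65.7%, 49.2% to 79.2%). That interval lay just below the 79.5% of all autosomes. The part of the H3K4me3 shift in the H3K27me3 calls was not tested. Without chromosome 23 there were 786 sites of line A alone and 197 of line B alone, and the medians of the ratio were -0.02 and -0.06.

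The 10 kb limit cut through a continuum. Just inside it for line A alone were chromosome 15 at 15675477, chromosome 2 at 120225848 and chromosome 29 at 46440720, with the nearest line B H3K27me3 summit 10012, 10053 and 10070 bases away and H3K27me3 scores of 9.16, 7.45 and 3.78 in line A. Just outside were chromosome 18 at 65732968, chromosome 2 at 122032753 and chromosome 19 at 43469305, at 9673, 9747 and 9950 bases with scores of 5.98, 3.94 and 5.46. For line B alone the sites just inside were chromosome 10 at 3962499, chromosome 16 at 52297615 and chromosome 19 at 24232081, at 10241, 10285 and 11071 bases with scores of 2.82, 7.26 and 3.49 in line B. Those just outside were chromosome 4 at 118287866, chromosome 16 at 52296959 and chromosome 6 at 109088623, at 9437, 9629 and 9897 bases with scores of 2.98, 7.26 and 9.92. The sites on chromosome 16 share 1 H3K27me3 summit and fall on either side of the limit.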

How the data were processed

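ChIP-seq of H3K4me3 and H3K27me3 was done in lines A and B, with 1 library each. Reads were aligned with BWA to UMD3.1 and peaks called with MACS2 by the authors, per the submitters' processing notes, without versions. The use of the inputs as control, filters and the calling mode are not given in the sources used here. Each deposited list holds 1-base summits (positions, unit "other") and a score, read as a −log10 value (of p or of q, which is not given). Nothing in the lists gives reads, so depth is unknown. Positions were counted from 1, and percentile ranks were taken over each whole list. Distances were measured between summits. Where several H3K27me3 summits lay within 1 kb, the highest score was used, and for H3K4me3 the nearest line B summit. Named sites were, in each kind, the 10 with the highest H3K27me3 score, the 5 longest runs, the 5 farthest from the other line, the 5 with the largest H3K4me3 ratio either way, and the 3 on each side of the 10 kb limit. The sites and rules were chosen with earlier results of these data known. No test across lines was possible. The classification code was run on simulated lists with classes planted at random positions. That checks the code and does not show whether the calls in the real lists are right. Sequences of the sites are not shown, since no UMD3.1 sequence was used. The scripts ran in Python 3.11.15 with pandas 2.3.3, numpy 2.4.6, matplotlib 3.10.9 and scipy 1.17.1.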

Additional observations from a re-analysis of the deposited data

Results flagged for a closer look

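The X chromosome and unplaced sequences lie outside the autosomal comparison and have no control list, and sites of the same kind were found there above the 3 that a count of 0 allows. The X had 760 sites of H3K4me3 in both lines, of which 43 carried H3K27me3 in line A alone (5.66%, Wilson interval 4.23% to 7.53%) and 22 in line B alone (2.89%, 1.92% to 4.34%). The median H3K27me3 score was 6.33 at the 43 and 7.04 at the 22, against 8.62 and 8.26 at the 453 sites with both. On unplaced sequences 4 of 40 shared sites had H3K27me3 in line A alone (10.0%, 3.96% to 23.1%), with a median H3K27me3 score of 5.78. There 0 had it in line B alone, where the limit of about 3 counts would be a share of 7.50% (Wilson upper bound 8.76%).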

How the results depend on the processing

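Depth is unknown, so a call missing in 1 library can mean a signal under its limit. With absence judged within 1 kb, 1265 sites had H3K27me3 in line A alone and 488 in line B alone. With the H3K27me3 summit above its list median 162 and 15 were left, and with H3K4me3 summits above their list medians 301 and 90, since fewer summits entered. Autosomal H3K27me3 lists of equal length gave 462 and 411. The centred H3K4me3 ratio with H3K4me3 summits above the list medians was -0.052 and -0.23, and the cause was not tested. Of 42 alternative values, the other 32 kept a count within 1.5 times, a median within its interval or, for percentile ranks (0.69 and -1.05), an interval holding 0. Equal whole lists gave 621 and 291. With equal autosomal lists the ratio's median at line A alone, -0.049, had an interval without 0 (-0.12 to -0.0024). Leaving out a library was not possible, since the rule needs all 4. No paired analysis was possible because each line has 1 library per mark.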
